A study of Mus musculus with 9 samples.

Results

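A set of 10 receptors through which islet cells read gut hormones, nutrients and neighbouring signals were followed here across chromatin libraries of 2 mouse islet cell lines. They are Glp1r, Gipr, Gcgr, Gpr119, Ffar1, Ffar4, Galr1, Sstr2, Adra2a and Prlr. Members were taken by gene name from the deposited table of windows, and called peaks were taken where they lay within 2 kb of the gene body. Of the 10 genes, 9 had a window; they held 12 of the 17641 windows, and 14964 genes had a window in all. Gcgr had none. The peak lists held 36 peaks near the 10 genes, of 108915. The receptors were selected on measured values: their window levels and peaks in betaTC3 against alphaTC1 were already known, so their values in that comparison are a description. Calls of a fit over all windows are counted there for reference only, beside the share of all windows called, and support nothing.

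The libraries are labelled as chromatin immunoprecipitation with an antibody against H3K9me3, histone H3 trimethylated at lysine 9. AlphaTC1, a mouse glucagon-producing alpha cell line, was studied 5 days after transduction with an empty vector (2 libraries) or with short hairpin RNA against Smndc1, a splicing factor (2 libraries). BetaTC3, a mouse insulin-producing beta cell line, was untreated (2 libraries), so the lines also differ in transduction; line and transduction cannot be told apart in that comparison. Both lines come from islet tumours of transgenic mice. The knockdown itself was not measured in these chromatin libraries, and no label states that replicates are separate cultures; p-values reflect the spread among these libraries, which may be technical.

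Incretin receptors (Glp1r for GLP-1, Gipr for GIP), the glucagon receptor Gcgr and the lipid amide receptor Gpr119 couple mainly to Gs and raise cyclic AMP, which strengthens glucose-stimulated insulin release in beta cells. Ffar1 and Ffar4 bind long-chain fatty acids and signal largely through Gq. Galr1 (galanin), Sstr2 (somatostatin) and Adra2a (adrenaline and noradrenaline) couple to Gi/o and restrain hormone release. Prlr, the prolactin receptor, is a cytokine receptor that signals through Jak2 and Stat5, and in mice it takes part in the growth of beta cells in pregnancy. H3K9me3 is known as a mark of silent heterochromatin.

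The sequence just upstream of the start is shown for 6 of these genes, because the windows and peaks described next lie at or beside it. Capitals mark CG dinucleotides. The runs for Glp1r, Ffar1 and Ffar4 are shorter than 250 bases because they stop at the start in the deposited table, which lies upstream of the RefSeq start. Sequences are from RefSeq on GRCm38.p6, 5′ to 3′ in the gene's direction; 8 of the 10 genes were matched, and Gipr and Galr1 were not. For Prlr, 2 of its RefSeq starts are given, because its window lies at the second.
Glp1r, chr17:30901617-30901816, plus strand: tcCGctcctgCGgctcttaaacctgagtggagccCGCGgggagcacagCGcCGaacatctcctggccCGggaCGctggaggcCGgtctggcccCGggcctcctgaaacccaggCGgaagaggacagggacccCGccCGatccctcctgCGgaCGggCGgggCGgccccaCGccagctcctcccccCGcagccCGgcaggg
Gpr119, chrX:48674479-48674728, minus strand: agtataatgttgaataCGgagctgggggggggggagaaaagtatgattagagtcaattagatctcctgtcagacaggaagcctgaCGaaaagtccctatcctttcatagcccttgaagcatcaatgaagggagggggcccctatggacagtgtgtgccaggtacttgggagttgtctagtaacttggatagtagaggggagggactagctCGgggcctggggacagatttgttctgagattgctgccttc
Ffar1, chr7:30861565-30861720, minus strand: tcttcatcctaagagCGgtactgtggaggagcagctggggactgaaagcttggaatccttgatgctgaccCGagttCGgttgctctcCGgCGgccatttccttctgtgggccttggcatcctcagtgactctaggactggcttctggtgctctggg
Ffar4, chr19:38096829-38097070, plus strand: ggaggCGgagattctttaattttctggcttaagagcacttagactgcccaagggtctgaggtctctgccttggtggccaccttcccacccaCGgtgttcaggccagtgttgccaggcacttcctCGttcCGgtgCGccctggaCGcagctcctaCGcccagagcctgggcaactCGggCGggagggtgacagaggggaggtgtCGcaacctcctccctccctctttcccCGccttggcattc
Sstr2, chr11:113619077-113619326, plus strand: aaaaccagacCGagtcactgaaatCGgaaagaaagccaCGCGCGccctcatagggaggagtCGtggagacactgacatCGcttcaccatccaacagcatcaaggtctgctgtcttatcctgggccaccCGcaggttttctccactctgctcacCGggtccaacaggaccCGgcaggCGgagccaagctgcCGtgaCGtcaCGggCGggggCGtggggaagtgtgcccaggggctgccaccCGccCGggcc
Prlr, the first start, chr15:10176988-10177237, plus strand: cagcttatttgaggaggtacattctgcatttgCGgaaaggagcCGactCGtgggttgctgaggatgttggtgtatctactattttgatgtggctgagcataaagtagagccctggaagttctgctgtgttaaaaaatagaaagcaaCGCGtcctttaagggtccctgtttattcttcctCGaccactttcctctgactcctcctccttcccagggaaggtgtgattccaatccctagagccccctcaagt
Prlr, the second start, chr15:10223656-10223905, plus strand: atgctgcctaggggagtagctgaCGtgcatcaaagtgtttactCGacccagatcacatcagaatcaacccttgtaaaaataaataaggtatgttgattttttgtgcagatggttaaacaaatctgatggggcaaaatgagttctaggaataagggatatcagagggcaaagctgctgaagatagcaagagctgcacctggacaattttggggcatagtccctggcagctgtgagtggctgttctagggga

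CG content was counted in the full 250 bases, which for Glp1r, Ffar1 and Ffar4 go beyond the printed runs. In the 250 bases upstream of the RefSeq start, Glp1r held 26 CG dinucleotides, Gcgr 24, Adra2a 22, Sstr2 18, Ffar4 11, Ffar1 8 and Gpr119 3. Over 32851 promoters of that length the median was 6 (quartiles 2 and 16). The first Prlr start held 6 and the second 2. Receptors with strong betaTC3 windows were thus found both with CG-rich starts (Glp1r) and CG-poor ones (Gpr119), and the CG-rich Gcgr start held no window or peak. For Adra2a the 250 bases lie inside the gene by the deposited table's start, and for Gcgr and the second Prlr start inside the RefSeq gene, so these may include transcribed sequence.

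The 4 motifs were searched on both strands of the same 250 bases. The cyclic AMP response element TGACGTCA was found in Sstr2 only, 58 bp upstream of its start (letters tgaCGtca in the run above); 1.55% of all promoters held it. The GC box GGGCGG was found in Glp1r (3 matches), Gcgr (2), Sstr2 (2), Ffar4 (1) and Adra2a (1), against 32.7% of promoters with a match. Adra2a also held TATAAA 29 bp upstream (12.4% of promoters) and the E-box CACGTG 80 bp upstream (6.02%). As stated above, the bases searched for Adra2a and Gcgr may include transcribed sequence. Of the Glp1r matches, the nearer pair share 1 base, and no other matches overlapped. A match describes the letters and not bound protein.

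Values below are scaled reads in a window, the authors' normalised coverage. Each library's values were whole multiples of 1 step, taken here as reads, and 4530066 to 9924487 reads per library lay in windows. A count of 3 reads, the limit that a count of 0 allows, equal 2.4 to 4.19 scaled reads depending on the library. A fold against a group at 0 is therefore given as a lower bound against 3 reads per library. Intervals and limits cover counting error only, and the labels name no molecular identifiers. Because a library averages many cells, fewer cells with signal and less signal per cell cannot be told apart.

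The profile of the libraries needs stating before the results. Of all windows, 65.9% were centred within 1 kb of a gene start. Ribosomal protein genes, active in every cell, had a peak within 2 kb in all 6 lists for 80 of 83 genes, while 1 of 1110 olfactory receptor genes did and 11740 of 21900 protein-coding genes did. What this says of the antibody's target was not tested, so the signal is called by its label only. Alpha cell markers summed to 2439 to 3206 scaled reads in the 4 alphaTC1 libraries and 581 to 608 in betaTC3, with Gcg at 0 in betaTC3; 5 of 7 windows were lower and 2 (Gc and Ttr) higher in betaTC3. Beta cell markers summed to 702 to 1131 and 5220 to 5784, with 5 of 6 windows higher in betaTC3 than in empty-vector alphaTC1. Sox9, a duct marker, moved with the line too (573 ± 39.3 in empty-vector alphaTC1, SD, n = 2, against 4.38 ± 0.541 in betaTC3), as did Col1a1 of fibroblasts (73.7 ± 6.27 against 25 ± 11.7) and Sst of delta cells (1.32 ± 1.87 against 100.1 ± 9.72). Pancreatic polypeptide, acinar, immune and endothelial markers had no window near their starts. The part of other cell types in the results was not tested.

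In betaTC3, 7 of the 9 receptor genes with a window carried signal that was near or at 0 in alphaTC1: Glp1r, Gipr, Gpr119, Ffar1, Ffar4, Galr1 and Adra2a. Prlr went the other way, and Sstr2 was low in every library. Against the empty vector, limma called 10 of the 12 windows higher in betaTC3 (7 genes) and 1 lower, where 22.1% of all windows were called higher and 33.2% lower (55.2% in either direction). Against the knockdown the same 10 and 1 were called, beside 36.6% higher and 24.0% lower (60.6% in either direction). Both comparisons use the same betaTC3 libraries, and the empty-vector libraries also serve the knockdown comparison. All 12 windows have the same width. The median difference over them was 6.65 on the log2(scaled reads + 1) scale, against -0.13 over all windows. Since the choice of genes used this contrast, nothing is read from these counts.

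**Figure D1:**
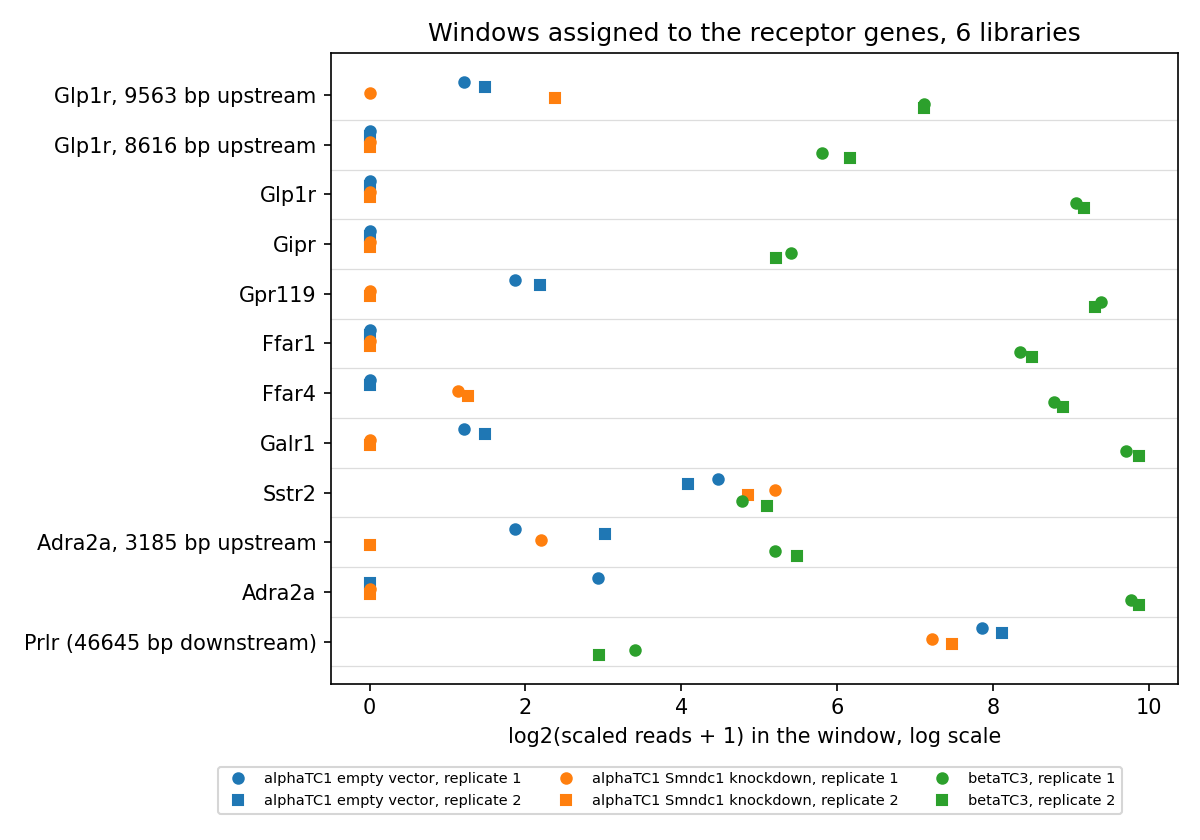
Scaled reads in each of the 12 receptor windows, as log2(scaled reads + 1) on the horizontal axis, with 1 point per library (circle, replicate 1; square, replicate 2; blue, empty-vector alphaTC1; orange, Smndc1 knockdown; green, betaTC3). The green points lie to the right of all alphaTC1 points in 10 windows and to the left for Prlr. The genes were chosen on this contrast and the share of all windows separated in this way was not counted, so nothing is read from it. For Sstr2 the betaTC3 and knockdown points overlap, with both empty-vector points to their left.

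Glp1r (ENSMUSG00000024027), the GLP-1 receptor, had 3 windows. The window over its start (chr17:30901762-30902162, mm10, overlapping the start and centred 145 bp downstream of it) held 0 scaled reads in all 4 alphaTC1 libraries and 535 and 574 in betaTC3, from 670 and 603 reads. The groups did not overlap, and the value was at least 167-fold higher than with the empty vector and at least 143-fold higher than in the knockdown. A pair of weaker windows lay upstream of the gene. The nearer, 8616 bp upstream of the start (chr17:30893001-30893401), held 0 in the 4 alphaTC1 libraries and 55.1 and 70.4 in betaTC3. The farther, 9563 bp upstream (chr17:30892054-30892454), held 1.32 and 1.78 with the empty vector, 0 and 4.19 in the knockdown and 137 in each betaTC3 library. All 3 places thus showed signal in betaTC3 and 3 reads or fewer in any alphaTC1 library.

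The authors' peak lists showed the same layout for Glp1r. No alphaTC1 list held a peak within 2 kb, and the betaTC3 peaks over the start were 1594 and 1754 bp wide, with the authors' folds over background of 40.8 and 38.8. They ran from chr17:30901205 to 30902798 in replicate 1. Smaller upstream peaks in the same lists, outside the 2 kb limit, had folds of 4.56 to 11.8.

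Gipr (ENSMUSG00000030406), the receptor of the other incretin, carried much less. Its window inside the gene (chr7:19165523-19165923, 404 bp downstream of the start that the file uses) held 0 in the 4 alphaTC1 libraries and 41.5 and 36.2 scaled reads in betaTC3. This was at least 11.7-fold higher than with the empty vector, and the mean in betaTC3 was 38.8 where the Glp1r start window held 554. Its betaTC3 peaks were narrow (505 and 369 bp) with folds of 3.44 and 6.40, and their summits lay 4494 and 4736 bp inside the gene when counted from the RefSeq start. Gipr therefore had signal within the gene body rather than at its RefSeq start.

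Gcgr, the glucagon receptor, had no window, and no peak covered any base of it in any library. Small peaks of 176 to 233 bp lay 633 to 854 bp past its end in the 4 alphaTC1 lists, with folds of 5.99, 4.79, 3.32 and 3.69, and in neither betaTC3 list. The window at that place, which the file assigns to Gm11789, held 29.1 and 26.6 scaled reads with the empty vector, 33.4 and 29.3 in the knockdown and 10.4 and 19 in betaTC3. Its knockdown difference was 0.16 ± 0.33 (SE) on the log2 scale, adjusted p = 0.731 by limma. In betaTC3 it differed by -0.93 ± 0.33 from the empty vector, which was not called (adjusted p = 0.0517 by limma). Against the knockdown the difference was -1.10 ± 0.33 (adjusted p = 0.0278 by limma).

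Gpr119 (ENSMUSG00000051209), a Gs-coupled receptor for lipid amides, had a far stronger window. At chrX:48673436-48673836, inside the gene and 842 bp downstream of the start, it held 2.65 and 3.55 scaled reads with the empty vector, 0 and 0 in the knockdown, and 666 and 634 in betaTC3. The mean in betaTC3 was 209.7-fold that with the empty vector, which rests on 2 and 4 reads. Peaks were broad: 4583 and 4763 bp in betaTC3, at the 99.4th percentile of width in both lists, covering 62.0% and 64.1% of the gene. No alphaTC1 list held a peak within 2 kb.

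Of the fatty acid receptors, Ffar1 (ENSMUSG00000044453) had a window 450 bp upstream of its start (chr7:30861814-30862214) with 0 in the 4 alphaTC1 libraries and 324 and 359 scaled reads in betaTC3, at least 103-fold higher than with the empty vector. Its betaTC3 peaks, 3006 and 2973 bp wide, covered all 903 bp of this short gene in RefSeq. Ffar4 (ENSMUSG00000054200) had a window inside the gene, 574 bp downstream of the start (chr19:38097445-38097845). There the empty-vector libraries held 0, the knockdown libraries 1.19 and 1.40 from 1 read each, and betaTC3 438 and 477. The difference was at least 138-fold against the empty vector. Ffar4 peaks in betaTC3 were narrower (1555 and 1703 bp) with folds of 35.2 and 38.3, and both fatty acid receptors lacked alphaTC1 peaks within 2 kb.

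Among the Gi/o-coupled receptors, Galr1 and Adra2a held the highest values of the 10 genes. Galr1 (ENSMUSG00000024553; chr18:82406344-82406744, inside the gene, 233 bp downstream of the start) held 1.32 and 1.78 scaled reads with the empty vector, from 1 and 2 reads, 0 in the knockdown, and 833 and 935 in betaTC3. The ratio of pooled reads, each group's sum adjusted for the scaling of its libraries, was 552, with a 95% counting interval of 189 to 2678. Its peaks were the widest of the group, 5671 and 6092 bp, at the 99.8th percentile of width in both betaTC3 lists, with folds of 51.2 and 58.8.

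Adra2a (ENSMUSG00000033717), the alpha-2A adrenergic receptor, had 2 windows. The stronger (chr19:54045586-54045986, inside the gene, 1635 bp downstream of the file's start at 54044151) held 6.62 and 0 with the empty vector, 0 in the knockdown, and 869.7 and 931 in betaTC3. RefSeq places the start at 54045259, within the betaTC3 peaks of 4138 and 4230 bp, which covered 91.5% and 93.8% of the gene. The weaker window, 3185 bp upstream (chr19:54040766-54041166), held 2.65 and 7.1 with the empty vector, 3.58 and 0 in the knockdown, and 35.9 and 43.8 in betaTC3. It was no longer among the windows counted as higher when empty-vector replicate 1 or either betaTC3 library was left out. Adra2a was the one betaTC3-high receptor with alphaTC1 peaks: 1 in empty-vector replicate 1, 2 in replicate 2 and 1 in knockdown replicate 2, all in the 3′ part of the gene with folds of 4.20 to 5.36, and none in knockdown replicate 1.

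**Figure D2:**
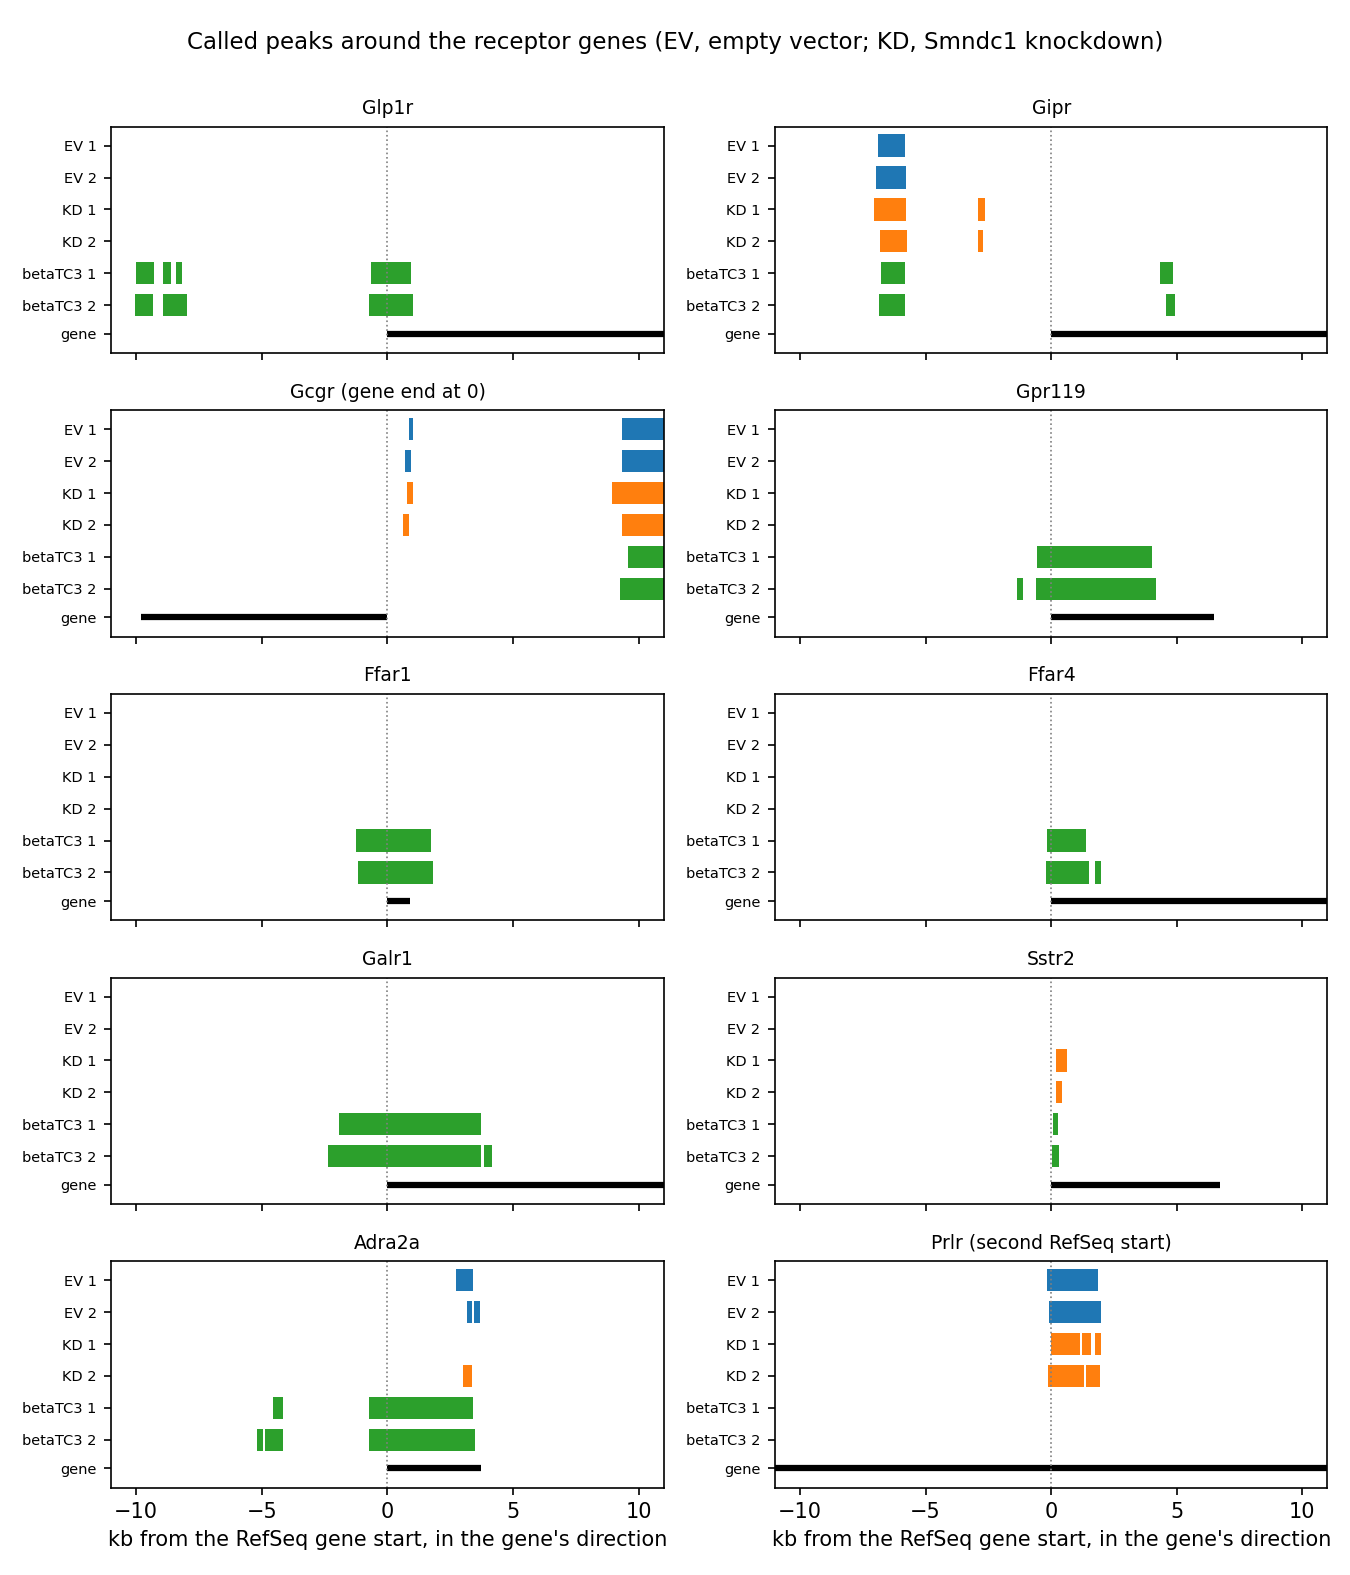
Called peaks (coloured bars) in the 6 lists around each receptor, in kb from the RefSeq gene start in the gene's direction (from the gene end for Gcgr, from the second RefSeq start for Prlr); the black line is the gene. BetaTC3 peaks cover the starts of Glp1r, Gpr119, Ffar1, Ffar4, Galr1 and Adra2a, and alphaTC1 peaks lie at the second start of Prlr.

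By peaks, 8 receptors had a peak within 2 kb in both betaTC3 lists (58.0% of 21900 protein-coding genes did), 3 in both empty-vector lists (Gcgr, Adra2a and Prlr; 56.4%) and 3 in both knockdown lists (Gcgr, Sstr2 and Prlr; 56.6%). Counting only the stronger peaks, those whose −log10 q-value reached their own list's median, left 5 in betaTC3 (Glp1r, Gpr119, Ffar4, Galr1 and Adra2a) and 0 in each alphaTC1 group. The share of protein-coding genes under this stricter rule was not counted, so nothing is read from these counts. There were 6 receptors (Glp1r, Gipr, Gpr119, Ffar1, Ffar4 and Galr1) with peaks in both betaTC3 lists and no alphaTC1 list, a pattern of 3.46% of protein-coding genes. The reverse held for 2 (Gcgr and Prlr), against 2.01%, with the weak Gcgr peaks lying past the gene's end. These shares describe a choice made on the same contrast.

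Within betaTC3 the order of window levels was Adra2a (900.2 ± 43.2, SD, n = 2), Galr1 (884 ± 72.5), Gpr119 (649.9 ± 22.8), Glp1r (554 ± 27.4), Ffar4 (458 ± 27.1), Ffar1 (341 ± 24.4), Gipr (38.8 ± 3.79), Sstr2 (29.8 ± 4.92) and Prlr (8.12 ± 2.07), taking the window nearest the start. Values of Adra2a and Galr1 overlapped between libraries. Gpr119, Glp1r, Ffar4 and Ffar1 did not overlap their neighbours in that order, and Gipr and Sstr2 did not overlap either (36.2 and 41.5 against 26.4 and 33.3). Against all windows in betaTC3, Adra2a stood at the 84.8th percentile of the mean, Galr1 at 84.2, Ffar1 at 53.6 and Gipr at 21.8. The highest receptor windows were thus strong but not extreme among all windows, while Galr1, Gpr119 and Adra2a peaks were among the broadest.

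A receptor window could also be counted by a strict rule of 3 or fewer reads in each alphaTC1 library and 100 or more scaled reads in both betaTC3 libraries. It was met by 5 of the 12 windows (Glp1r at the start and 9563 bp upstream, Ffar1, Ffar4 and Galr1), against 2.46% of all windows. Gpr119, with 4 reads in empty-vector replicate 2, and Adra2a, with 5 reads in replicate 1, lay just outside.

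Prlr (ENSMUSG00000005268) ran the other way. Its window (chr15:10224100-10224500, inside the gene) lay 46645 bp downstream of the file's start and 394 bp downstream of the second RefSeq start at 10223906, whose upstream sequence is printed above. It held 230.4 and 276 scaled reads with the empty vector, 147 and 176 in the knockdown, and 9.58 and 6.66 in betaTC3. The mean in betaTC3 was 31.2-fold lower than with the empty vector and 19.9-fold lower than in the knockdown. No library had a peak or window within 2 kb of the first start. Empty-vector peaks spanned the second start as single peaks of 2022 and 2076 bp (from chr15:10223758 and 10223808), whereas the same stretch was called as 3 peaks in knockdown replicate 1 and 2 in replicate 2.

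Sstr2 (ENSMUSG00000047904), a somatostatin receptor, had a low window just inside the gene (chr11:113619374-113619774, 232 bp downstream of the start). It held 21.2 and 16 scaled reads with the empty vector, 35.8 and 28.0 in the knockdown, and 26.4 and 33.3 in betaTC3, from 16 to 35 reads per library. The 3 groups lay close together, with both empty-vector libraries lowest. Narrow peaks (237 to 447 bp, folds 3.84 to 5.63) were called in both knockdown and both betaTC3 lists and in neither empty-vector list. Of protein-coding genes, 0.242% had peaks in both knockdown lists and neither empty-vector list.

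The knockdown comparison asks whether loss of Smndc1 moves the alpha line's signal at these receptors. No receptor window was called by limma at an adjusted p below 0.05, and the same held for all 17641 windows (0% called; 6169, or 35.0%, had an unadjusted p under 0.05). Among the receptors, 5 of 12 windows had an unadjusted p under 0.05, with adjusted p from 0.0691 upward. The quasi-likelihood test of edgeR on the recovered reads called 0 windows and DESeq2 10 of the table, none of them a receptor window. Over all windows the median difference was -0.37 and 81.2% were below 0, so the receptors' differences are also given with each library centred on its median.

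Prlr was lower in both knockdown libraries than in both empty-vector libraries: the difference was -0.65 ± 0.25 (SE, n = 2 per group) on the log2 scale, a 1.57-fold lower mean, adjusted p = 0.131 by limma (-0.27 when centred, adjusted p = 0.633). Of all windows, 64.6% were lower in this way without overlap. Sstr2 was higher in both knockdown libraries, by 0.75 ± 0.29, a 1.72-fold higher mean, adjusted p = 0.132 by limma (1.12 when centred, adjusted p = 0.295), and 6.85% of all windows were higher without overlap. Neither passed the threshold, and for Sstr2 the counting intervals of the libraries overlap. The 3 other windows with an unadjusted p under 0.05 (Gpr119, Ffar4 and Galr1) rest on 4 reads or fewer in every alphaTC1 library, where no fold can be given.

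**Figure D3:**
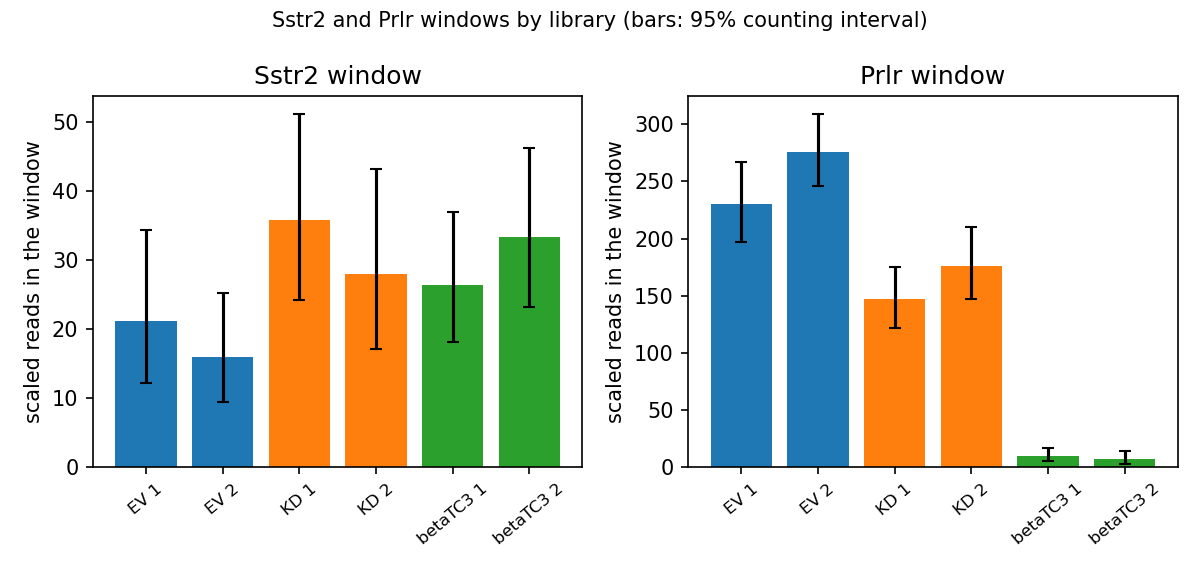
Scaled reads in the Sstr2 and Prlr windows by library (EV, empty vector; KD, Smndc1 knockdown), bars from 0 with 95% counting intervals. The Sstr2 intervals overlap between libraries, and Prlr holds 230.4 and 276 with the empty vector, 147 and 176 in the knockdown and 9.58 and 6.66 in betaTC3.

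The count depended on knockdown replicate 2 and on settings of the fit. Without knockdown replicate 2, 4 receptor windows were called (Glp1r 9563 bp upstream, Gpr119, Ffar4 and Galr1), all at 4 reads or fewer in each alphaTC1 library, and so were 6281 windows of the table. That fit takes the remaining knockdown library to have the spread of the other 2 groups.

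The nearest windows of other genes were set beside the 7 betaTC3-high receptors as a description. Of these 14 windows, 4 were called higher in betaTC3 than with the empty vector, 3 lower and 7 not called, with log2 differences from -0.89 to 3.28. Over all windows, 22.1% were called higher and 33.2% lower. Whether neighbours move with the receptors was not tested. Gpr119 stood between Slc25a14 (437 ± 18.7 with the empty vector and 434 ± 10.8 in betaTC3) and Rbmx2 (579 ± 39.9 and 546 ± 16.6), neither of which differed by the test (adjusted p = 0.963 and 0.684 by limma). Ffar4 had Cep55 on one side (863 ± 37.3 and 872 ± 68.3) and Rbp4, 10542 bp away, on the other, which was lower in betaTC3 (252 ± 26.7 and 161 ± 15.7). Around Galr1 both neighbours were called higher, Gm50294 by 0.89 and Mbp by 0.54 on the log2 scale (adjusted p = 0.0480 and 0.0204 by limma). Around Glp1r and Adra2a 1 of 2 neighbours was called higher: Abcg1, 121405 bp from Glp1r, rose from 75.5 to 744 ± 24.0 scaled reads, and Gm50186, 58255 bp from Adra2a, from 2.87 ± 1.55 to 34.8 ± 0.616, while Gm50245 and Bbip1 on the other sides were not called (0.34 and 0.85, adjusted p = 0.199 and 0.182).

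**Figure D4:**
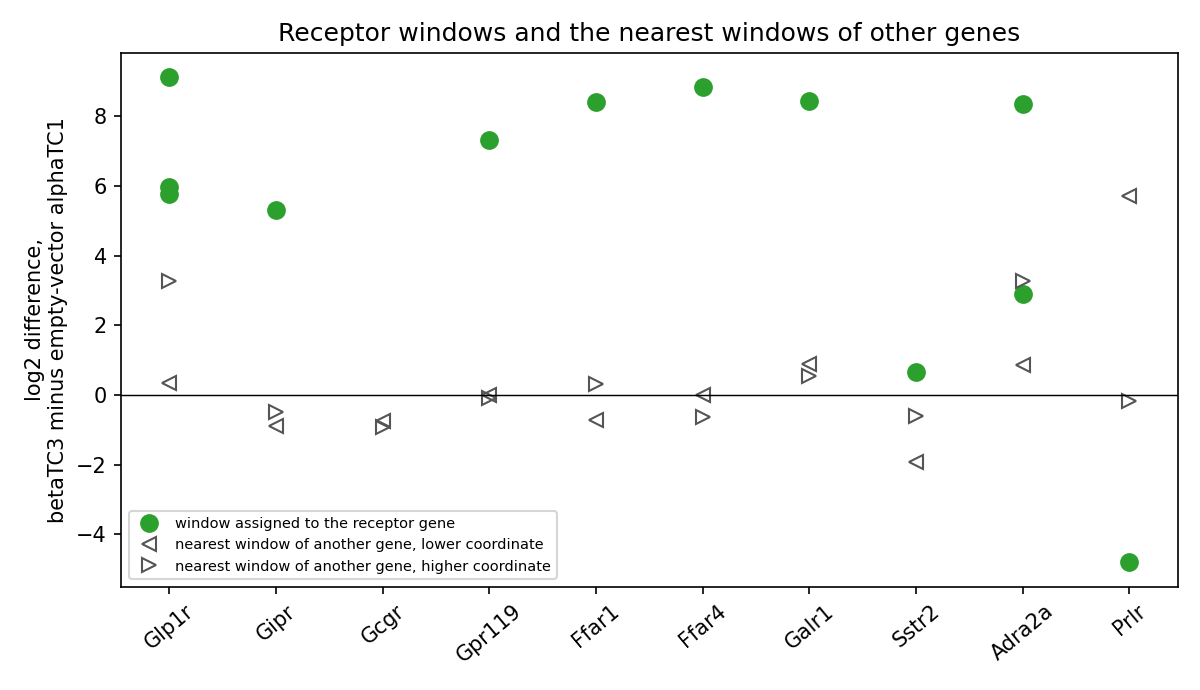
Difference between betaTC3 and empty-vector alphaTC1, on the log2(scaled reads + 1) scale, for each receptor window (green circles) and the nearest window of another gene at the lower (left triangle) and higher coordinate (right triangle). For Gpr119, Ffar1, Ffar4 and Galr1 the neighbours lie within 1 of 0 while the receptor windows lie above 7.

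Windows with the most similar values over the 6 libraries were found by the root mean square difference of log2(scaled reads + 1). For Glp1r they were Kcnip1 (0.04), a potassium channel partner, Nuak2 (0.09), a kinase, and Prune2 (0.12). Gpr119 was closest to a window inside Hnf4a (0.12), a transcription factor gene, then to 1 inside Ins2 (0.20), which encodes insulin and which the file assigns to Gm49394, and to Pcsk1 (0.30), the prohormone convertase. Galr1 was closest to a window inside Eya2 (0.22), then Abca5 (0.29), and Adra2a to Pard3 (0.21), Cdh8 (0.27) and Prkar1a (0.40). Ffar4 was closest to Gpc4 (0.48) and Thrb (0.52), which encodes a thyroid hormone receptor. The nearest to Sstr2 was a window inside Gpr35 (0.11).

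Other receptors and signalling genes of the same pathways were counted by windows within 2 kb of a gene start, betaTC3 against the empty vector. Of all windows, 22.1% were called higher and 33.2% lower. With libraries centred on their medians, 11673 of the 17641 windows were called, 6050 of them higher, which is the base for the centred counts below. Of 9 windows of related receptors, 6 were higher in betaTC3, 3 lower and 0 not called, with a median of 2.60. Sstr5, a somatostatin receptor, held 432 ± 12.3 against 4.87 ± 3.15 scaled reads (88.6-fold), and Galr3, a galanin receptor, 202 ± 18.2 against 0 (at least 60.9-fold). Adrb1, a beta adrenergic receptor, fell from 19.3 ± 2.90 to 0.875 ± 0.108, and Sstr3 from 191 ± 21.8 to 44.6 ± 9.22. So Sstr2, Sstr3 and Sstr5 showed 3 patterns: low throughout, higher in alphaTC1 and higher in betaTC3.

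Of 10 windows of other islet G protein-coupled receptors, 6 were higher, 2 lower and 2 not called (median 4.11; 7 and 2 when centred). P2ry1, an ATP and ADP receptor, held 436 ± 4.83 against 1.11 ± 0.308, and Chrm3, the muscarinic receptor that answers acetylcholine in beta cells, 349 ± 70.5 against 1.11 ± 0.308. Npy1r, a neuropeptide Y receptor, was lower at 0.476 ± 0.673 against 247 ± 6.96, and Drd2, a dopamine receptor, at 78.8 ± 32.0 against 227 ± 20.4.

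Genes downstream of the receptors were counted in the same way, and the shares over all windows were 22.1% higher and 33.2% lower. With centred libraries, 6050 of all 17641 windows were higher, among 11673 called. For Gs and cyclic AMP, 3 of 18 windows were higher, 5 lower and 10 not called (median -0.28); with libraries centred on their medians the split was 5 and 6. Adcy8, an adenylyl cyclase, held 331 ± 13.9 against 0.444 ± 0.628, and Prkar1b, a protein kinase A subunit, 727 ± 106 against 3.32 ± 0.925. Pde10a, a phosphodiesterase, fell 9.84-fold from 1767 ± 136 and Rapgef3, the cyclic AMP sensor Epac1, 8.76-fold from 261 ± 21.1.

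For Gq and phospholipase C, 3 of 10 were higher, 2 lower and 5 not called (median 0.40; 6 and 2 when centred). Itpr3 and Itpr2, inositol trisphosphate receptors, were 9.28-fold and 3.28-fold higher at 230.0 ± 4.49 and 82.1 ± 0.946. Prkca was 2-fold lower and Prkce, also a protein kinase C, 1.36-fold lower, though the Prkce call was lost without either empty-vector library or either betaTC3 library (adjusted p from 0.112 to 0.241 by limma). For Gi/o, 5 of 13 were higher, 3 lower and 5 not called (median 0.24, and 9 and 3 when centred). The centred counts stand beside 6050 of all 17641 windows higher, among 11673 called. Gnai1, an inhibitory G protein subunit, held 424 ± 30.5 against 0.888 ± 1.26, and Kcnj6, a G protein-gated potassium channel, 191 ± 19.9 against 0, while its relative Kcnj9 fell 51.3-fold from 192 ± 24.6 and Gng2, a G protein gamma subunit, 65.5-fold from 125 ± 5.83.

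In prolactin signalling, 0 of 4 windows were higher, 2 lower and 2 not called (1 and 2 when centred). Over all windows, 22.1% were higher and 33.2% lower, and 6050 of 17641 were higher when centred, among 11673 called. With 4 windows to a list, nothing is read from the counts in this paragraph. Stat5a, the transcription factor downstream of Prlr, was 2.62-fold lower in betaTC3 (249 ± 30.8 against 653 ± 17.7), and Socs2, which dampens that signal, 1.45-fold lower, a call lost without either empty-vector library (adjusted p = 0.0931 and 0.0567 by limma). Of the ligands and their makers, 3 of 4 windows were higher and 1 lower: Pcsk1 held 634 ± 8.36 against 1.99 ± 0.947, Sst, encoding somatostatin, 100.1 ± 9.72 against 1.32 ± 1.87, and Gcg, encoding glucagon and GLP-1, 0 against 346 ± 7.99 (at least 132-fold lower).

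**Figure D5:**
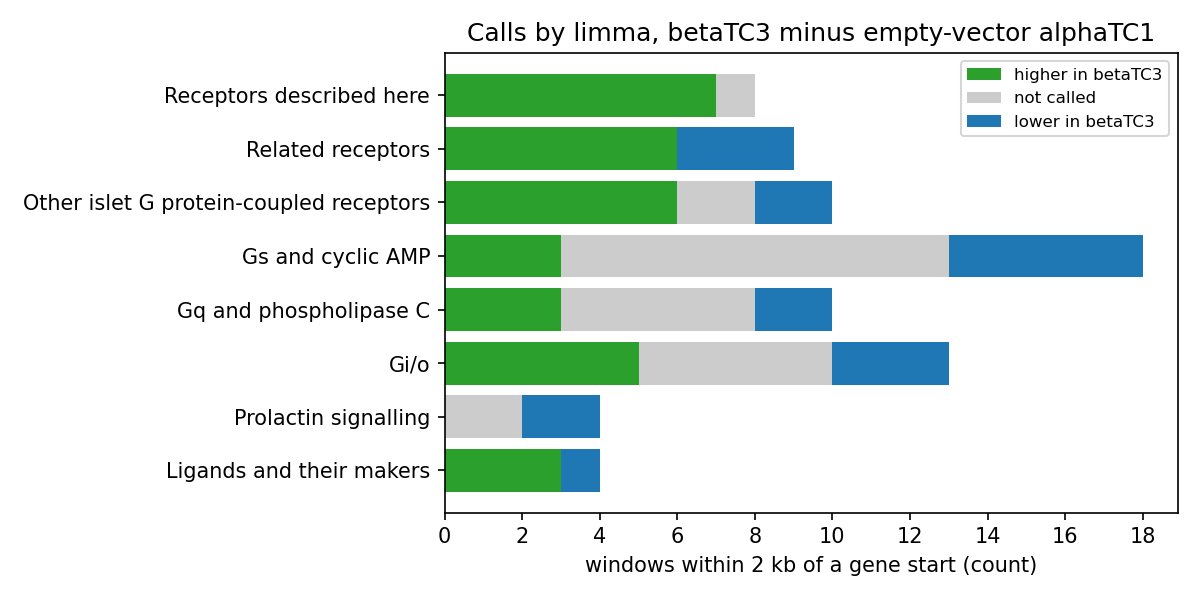
Number of windows within 2 kb of a gene start called higher (green), lower (blue) or not called (grey) by limma in betaTC3 against empty-vector alphaTC1, for the receptors described here (7 of 8 higher) and for 7 lists of related genes. The receptor lists are mostly green, and the Gs and cyclic AMP list has 10 of 18 windows not called. Of all windows, 22.1% were called higher and 33.2% lower. The receptors described here were chosen on this contrast, so nothing is read from their bar. The lists were also chosen with earlier results of these data known.

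In the knockdown, no window of any of these lists was called by limma. Those with the smallest adjusted p were Sstr5 (-2.44 ± 0.41 on the log2 scale, adjusted p = 0.0987, at 0 in both knockdown libraries) and Galr3 (1.90 ± 0.44, 0.117) among related receptors, and P2ry1 and Htr1d, a serotonin receptor, among the others (-1.07 ± 0.27 and -1.34 ± 0.28, each 0.117). Over all windows the median difference was -0.37 and 81.2% were below 0, and the values here are not centred. With libraries centred on their medians, the list medians were -0.03 for Gs and cyclic AMP and 0.03 for Gq and phospholipase C. They were -0.08 for Gi/o and -0.03 for prolactin signalling, and those of the remaining lists lay between -0.22 and 0.41. Further along the pathways, Arrb2, a beta-arrestin, differed by -0.60 ± 0.17, Prkar2b by -0.56 ± 0.16, Gnai3 by -0.52 ± 0.15 and Gnaz by -0.51 ± 0.17 (adjusted p from 0.117 to 0.120). The Gq subunits Gnaq and Gna11 differed by -0.83 ± 0.31 and -0.47 ± 0.18 (0.130 and 0.132), and Stat5a by -0.37 ± 0.15 (0.134). Jak2, the Prlr kinase, differed by -0.69 ± 0.33 (0.173), Pcsk1 by -1.54 ± 0.31 (0.117) and Gcg by 0.15 ± 0.21 (0.602). The Galr3, P2ry1, Htr1d and Pcsk1 windows hold 4 reads or fewer in each alphaTC1 library, where no fold can be given. Sstr5 rests on 2 and 8 reads with the empty vector. Another Galr3 window near the same start went the other way (-0.46 ± 0.43, adjusted p = 0.436 by limma). Without knockdown replicate 2, Sstr5, Arrb2, Prkar2b, Gnai3, Gnaz and Gna11 passed the threshold. Many windows of the whole table did so too, as given above for the receptors, so nothing is read from these calls.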

How the data were processed

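The samples are 6 ChIP-seq libraries and 3 inputs (1 per group); inputs entered only through the authors' peak calling. Reads were processed on mm10 (GRCm38) with MACS2 2.2.7.1, Picard 2.19.2 and Bowtie2 2.4.1, per the submitters' processing notes; the derivation of the scaling factors and any subtraction of input are not given in the sources used here. Had input been subtracted, read numbers, bounds and intervals describe the reads left. The deposited table holds 1 normalised signal (coverage) value per library and window. In the deposited peak lists each peak has the authors' score, a ratio (fold over background), and p-values and q-values as −log10, 1 list per library; folds describe peaks within a list.

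Whole reads were recovered from the scaled signal for 100.0% of values (tolerance 0.001 of a step). limma 3.58.1 was fitted to log2(scaled reads + 1) of all 6 libraries with 1 mean per group and an intensity trend, with Benjamini-Hochberg adjustment over 17641 windows and a threshold of 0.05. The count test of edgeR 4.0.16 called 0, 11968 and 12394 windows (knockdown against empty vector, betaTC3 against empty vector, betaTC3 against knockdown) and DESeq2 1.42.0 called 10, 10917 and 11389. The limma calls numbered 0, 9744 and 10691. In betaTC3 against the empty vector, 40.0% of calls were higher with limma, 51.8% with centred libraries, 52.0% with edgeR and 55.6% with DESeq2. Scripts were tested on simulated data; R 4.3.3, Python 3.11.15 and pandas 2.3.3 were used.

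Distances are to the start in the deposited table, peaks near genes and promoter sequences are from RefSeq (GRCm38.p6), and peaks needed 1 bp within 2 kb of the gene. The receptors, gene lists, tests and marker lists were chosen with earlier results of these data known. All 10 receptors are named; from each list, the 2 called windows with the largest increase and the 2 with the largest decrease in betaTC3, and the 2 with the smallest adjusted p in the knockdown; as similar windows, up to the 3 nearest to a receptor window at its start (1 of them is not reported here). Alternatives were other pseudocounts, centring, a filter on low values, a replicate block, edgeR, DESeq2, each library left out, other peak limits and, chosen after seeing the data, no intensity trend.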

Additional observations from a re-analysis of the deposited data

How the results depend on the processing

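In betaTC3 against either alphaTC1 group, 10 or 11 receptor windows were counted as called under the alternatives run; the choice of genes fixes this direction, so it shows no stability. The Adra2a window 3185 bp upstream was the one lost (adjusted p from 0.103 to 0.171 against the empty vector). In the knockdown comparison 3 receptor windows were called (Gpr119, Ffar4 and Galr1) at a pseudocount of 0.1, beside 335 of all 17641 windows. With no intensity trend, an alternative chosen after seeing the data, 3 were called, beside 163 of all windows. The count also depended on knockdown replicate 2, as described above. The cause was not tested. The receptor windows called in this comparison hold 4 reads or fewer in each alphaTC1 library. Sstr2 in betaTC3 minus knockdown turned from -0.09 to 0.08 without knockdown replicate 1 and to 0.07 without betaTC3 replicate 1 (range -0.27 to 0.08 with 1 library left out), and Stat5a in the knockdown from -0.37 to 0.00 with centred libraries and with edgeR. Prkce and Socs2 in betaTC3 also lost their calls with DESeq2 (adjusted p = 0.0569 and 0.0722). Receptors with a peak in both libraries, 3, 3 and 8 for the empty vector, the knockdown and betaTC3, became 0, 1 and 7 within 2 kb of the gene start, 5, 5 and 9 within 10 kb of the gene (where Gipr and Ffar4 gain alphaTC1 peaks and Gcgr betaTC3 peaks), and 0, 0 and 5 with the stronger peaks only, since these limits admit other peaks; with 1 library alone they were 3, 3 to 4 and 8. Deviations of same-numbered libraries from their group means had correlations of r = -0.0101, 0.0848 and -0.177 over 17474 windows. These values cannot tell whether the numbers mark a shared culture or day, and the labels do not say. With a replicate block 0, 11 and 11 receptor windows and 0, 9152 and 9891 of all windows were called. Most alphaTC1 values of the receptor windows are at 3 reads or fewer, so their differences between alphaTC1 groups depend on the pseudocount and give no fold.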
